A study of Chlorocebus sabaeus with 32 samples.

Results

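Hippocampal RNA of infant vervet monkeys (Chlorocebus sabaeus, an African green monkey) was compared between 7 libraries whose titles open with '2010', here called T10, and 14 whose titles open with '2009', here called T09. These 21 libraries were taken from a set of 32 by 2 parts of the title: the opening digits and a number that follows the letters VMT, which had to be below 20000. Of the other 11 libraries, 9 also open with '2010' and 2 open with '2011', and all carry higher VMT numbers. The series set out to describe how gene expression in the hippocampus, a brain region needed for forming memories, changes during development. All 21 libraries are labelled hippocampus and under 1 year of age, and both groups were prepared alike: total RNA, Ribo-Zero Gold depletion of ribosomal RNA, and stranded Illumina TruSeq libraries. No treatment, genotype, sex, exact age or batch is given for any animal, and the labels do not say what the title digits or VMT numbers stand for. A difference between T10 and T09 therefore cannot be told apart from a difference in age within the first year, collection or handling. Each library was taken as 1 animal because each title is unique. The labels do not state this, and p-values measure only the spread between these libraries. Replicate numbers used below follow the order of the titles within each group, because the labels give none.

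The infant hippocampus is still being built. Granule neurons continue to be added to the dentate gyrus after birth, and young neurons carry proteins that guide migration and neurite growth, such as doublecortin. Oligodendrocyte precursors become newly formed and then myelinating oligodendrocytes in sequence, while the extracellular matrix, synaptic receptors and ion channels change from early to mature forms. The values below are from bulk tissue, in which fewer cells of a type and less RNA per cell cannot be told apart.

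Counts in genes ran from 11403860 to 17493609 in the T10 libraries and from 9347635 to 19673621 in the T09 libraries. None of the 5 technical measures compared (depth, genes with a count, and the shares of reads in no gene feature, with several alignments and in the top 10 genes) separated the groups by an exact two-sided permutation test, with adjusted p from 0.186 to 0.417. Counts of Y-linked genes were high in 1 of 7 T10 libraries and in 6 of 14 T09 libraries, and at most 2.12 CPM (counts relative to library size) in the others. The apparent share of males thus differed between the groups. The labels give no sex, and the main fit took no account of it. Replicate 1 of the T09 libraries stood apart: it had the fewest counts, 67.1% of its reads in no gene feature, and a first principal component of −94.9 against −15.4 to 29.6 in the other T09 libraries. Replicate 2 of the T10 libraries held high counts of genes known from the striatum. The summed level of its 5 tested dentate granule cell genes was 123 CPM, the lowest of the T10 libraries, whose median was 320 CPM. The same sum was 99.7 CPM in replicate 1 of the T09 libraries, the lowest of that group, whose median was 353 CPM. Both libraries also had the lowest sum of their group for genes of CA pyramidal neurons. Results that rest on either library are given with and without it, and for lists with calls the counts are also given, where they change, with both left out and for the 6 T10 and 8 T09 libraries with little Y-linked signal.

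Genes called higher in the T10 libraries included 9 of 16 genes of immature neurons, 4 of 10 of oligodendrocyte precursors and 4 of 8 of the perineuronal matrix. Genes called lower included 7 of 20 of mature oligodendrocytes and 4 of 10 heat shock genes. All gene lists were written with earlier results of these data known, so their counts describe the data and do not test the lists. Counts were tested with edgeR's quasi-likelihood test, with p adjusted by Benjamini-Hochberg over all 22203 genes that passed the count filter, and a gene is called when its adjusted p is below 0.05. Every adjusted p of a gene below is from that test, and every log2 difference is T10 minus T09 with its standard error (SE), from 7 and 14 libraries unless a library is named as left out. There were 1162 calls (5.23% of the genes tested), of which 687 were higher in the T10 libraries (3.09%) and 475 were lower (2.14%). The median difference over all genes was near 0, at 0.00067 on the log2 scale. Most calls were modest in size: the median was 0.50 for genes called higher and −0.42 for genes called lower, and 55 genes called higher and 49 called lower differed by more than 1. With scaling by library totals alone the calls became more one-sided, at 942 higher and 321 lower, so that 74.6% of calls were higher instead of 59.1%.

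**Figure D1:**
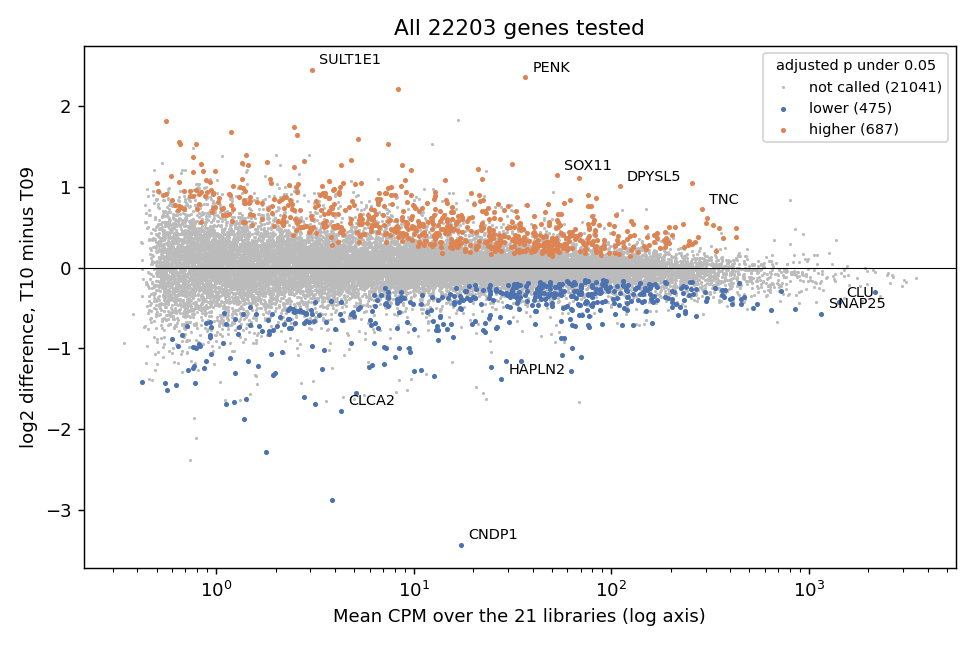
Log2 difference between the T10 and T09 libraries (y axis) against mean CPM over the 21 libraries (log x axis) for all genes tested, with the 687 genes called higher in orange and the 475 called lower in blue. CNDP1 lies lowest at −3.43 and SULT1E1 highest at 2.45, and the genes of largest CPM that were called differ by less than 1.

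The number of calls depended on single libraries. Without replicate 1 of the T09 libraries it rose to 1434 higher and 1202 lower, and all 1162 earlier calls were among them. Leaving out replicates 1, 6 or 7 of the T10 libraries gave 323 and 182, 275 and 155, and 279 and 167 calls higher and lower. Without replicates 2 or 4 of the T09 libraries there were 430 and 284, and 457 and 283, and without replicate 7 the lower calls numbered 309. Of the 1162 genes, 333 (28.7%) were called with each of the 21 libraries left out in turn, 199 of them higher and 134 lower. All 1162 kept the sign of their difference in every one of those 21 fits. That was close to fixed in advance, because the genes were chosen for a difference in these same libraries. Among 86 called genes chosen by rule for naming, 38 lost their call without replicate 6 of T10, 34 without replicate 7, 30 without replicate 1 and 23 without replicate 2. Every one of the 86 with an adjusted p under 0.0136 was called with each library left out, and every one with an adjusted p of 0.0155 or above lost its call without at least 1 library, with the highest adjusted p without replicate 6, 7, 2 or 1 of T10. With both libraries that stood apart left out there were 1209 calls higher and 1073 lower, and among libraries with little Y-linked signal, 1346 higher and 1325 lower. The latter included 850 of the 1162 genes, and all 1155 of the 1162 that could be tested there had the same direction. Those libraries are part of the same 21, so the shared direction is no separate evidence. With the Y-linked level as a covariate 1044 of the 1162 were called. List counts below are to be read against the number called over all genes in the same fit. That was 1162 of 22203 with all 21 libraries, 2636 of 22075 without replicate 1 of T09 and 2282 of 22235 without both libraries that stood apart. It was 2671 of 21830 among libraries with little Y-linked signal. Without replicates 1, 6 or 7 of T10 it was 505 of 22289, 430 of 22340 and 446 of 22346.

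**Figure D2:**
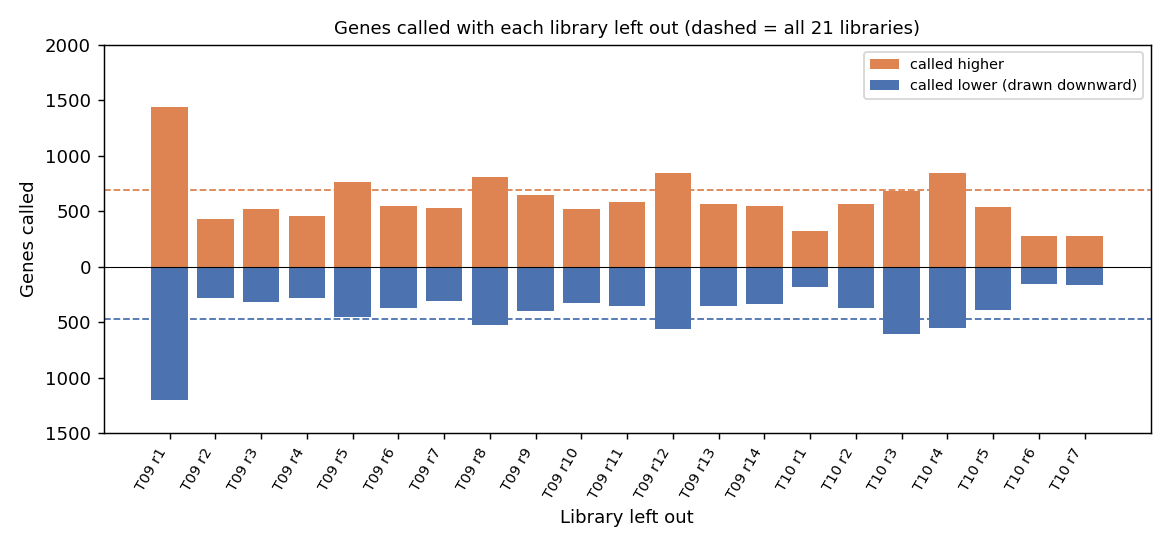
Genes called higher (orange, upward) and lower (blue, drawn downward) with each library left out, on a linear axis, with dashed lines at the 687 and 475 calls from all 21 libraries. The bars range from 275 to 1434 upward and from 155 to 1202 downward, and are longest without replicate 1 of the T09 libraries.

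Genes of immature neurons held the largest number of higher calls among the lists. Of 16 list members, all of which passed the count filter, 9 were called higher and none lower, and the list median was 0.65 on the log2 scale against 0.00067 over all genes tested. With both libraries that stood apart left out 10 were called higher, and 7 among libraries with little Y-linked signal. Their summed level ran from 2255 to 4400 CPM with a median of 3616 in the T10 libraries and from 1801 to 3307 with a median of 2191 in the T09 libraries. The sums overlapped, but 5 of 7 T10 libraries lay above every T09 library.

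DPYSL5, a collapsin response mediator of growing axons, had 116, 157 and 211 CPM as lowest, median and highest level in the T10 libraries and 56.2, 77 and 128 CPM in the T09 libraries. Its difference was 1.01 ± 0.13 (adjusted p = 0.000596). SOX11, a transcription factor of newly born neurons, ranged from 59.6 to 107 CPM around a median of 79.3 in the T10 libraries and from 26.3 to 60.8 around 32.2 in the T09 libraries, a difference of 1.14 ± 0.16 (adjusted p = 0.00109). For each of these 2 genes, 6 of 7 T10 libraries were above every T09 library, and only the highest T09 library reached the lowest T10 library. The 3 highest SOX11 values among the T09 libraries, 60.8, 59.3 and 56.4 CPM, came from replicates 8, 1 and 12, whose VMT numbers are the 3 lowest of that group. The other T09 libraries had at most 38.1 CPM.

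DCX, which encodes the microtubule protein doublecortin of migrating neurons, had 51.2, 70.9 and 109 CPM against 36.7, 42.9 and 65.5 in the T09 libraries, a difference of 0.80 ± 0.13 (adjusted p = 0.00329). DPYSL3, a relative of DPYSL5, differed by 1.05 ± 0.20 (adjusted p = 0.00578) and MARCKSL1, an actin-regulating membrane protein, by 0.83 ± 0.15 (adjusted p = 0.00539). SOX4, which acts with SOX11, differed by 0.77 ± 0.14 (adjusted p = 0.00549). Smaller differences were called for IGFBPL1 (0.58), STMN1 (0.56) and the neuronal tubulin TUBB3 (0.53). STMN1, which destabilises microtubules, was called with only 10 of 21 single libraries left out, and its adjusted p was 0.106 without replicate 2 of the T10 libraries. DCX, SOX4, SOX11, DPYSL3, DPYSL5, IGFBPL1 and MARCKSL1 were called with each of the 21 libraries left out. Members that did not pass were not all higher: NEUROD1, a granule neuron differentiation factor, was at −0.09 ± 0.34 and the RNA-binding protein ELAVL4 at −0.04 ± 0.11, while CD24 was at 0.93 ± 0.38 (adjusted p = 0.153).

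**Figure D3:**
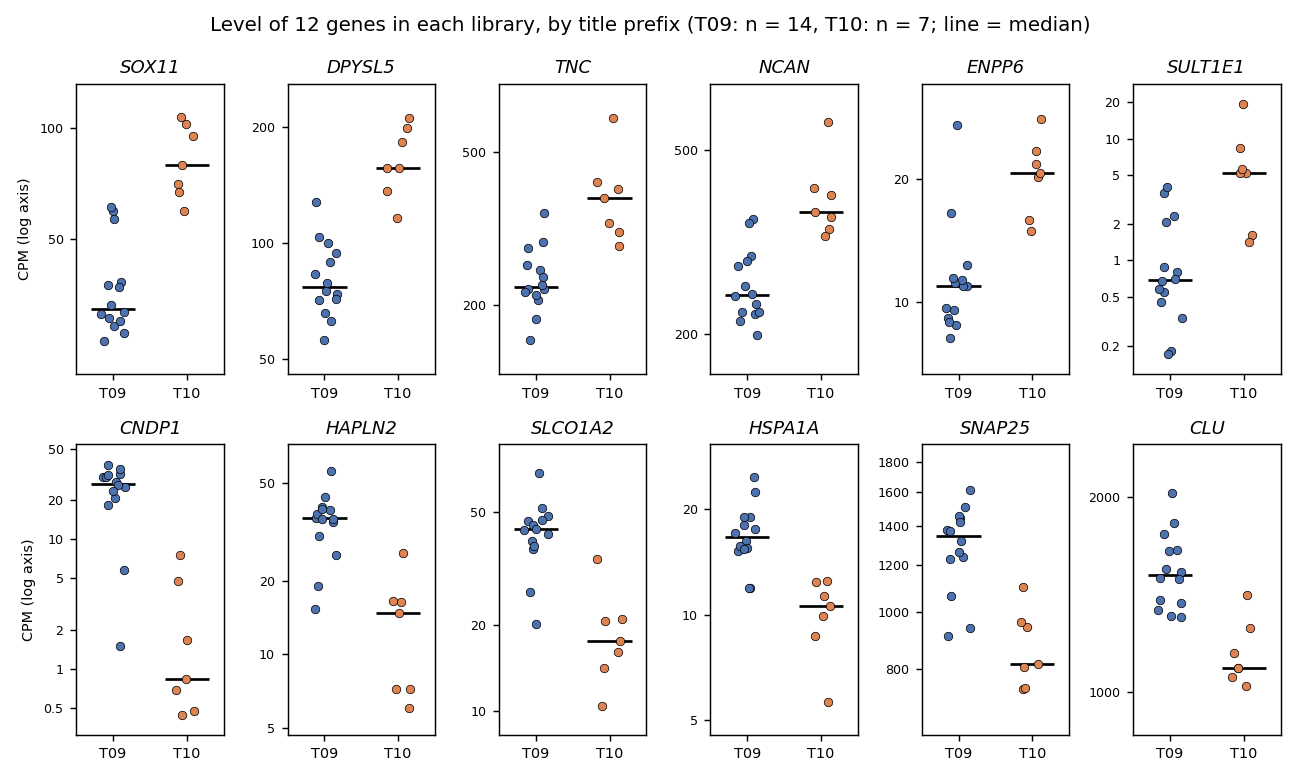
Level of 12 genes (CPM, log axes) in each of the 14 T09 libraries (blue) and 7 T10 libraries (orange), where a point is a library and the line is the group median. The 6 upper genes were called higher in the T10 libraries and the 6 lower genes lower. CNDP1 shows the widest gap, with medians of 0.833 and 26.9 CPM, and in every panel the groups overlap.

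Progenitor and cell cycle genes showed fewer calls. Of 13 genes of radial glia and neural progenitors, 3 were called higher, none lower, and the median was 0.25. Among libraries with little Y-linked signal 2 were called higher and 1 lower, and the higher calls ran from 1 to 4 with single libraries left out, with 1 without replicate 1 or 7 of the T10 libraries. The matrix glycoprotein TNC (tenascin C), found around radial glia and young astrocytes, had 285, 380 and 611 CPM in the T10 libraries and 163, 223 and 347 in the T09 libraries, a difference of 0.72 ± 0.13 (adjusted p = 0.00539). Of the 7 T10 libraries, 4 lay above all T09 libraries. FABP7, a fatty acid binding protein of radial glia, differed by 0.77 ± 0.19 (adjusted p = 0.0228) and the receptor NOTCH1 by 0.26 ± 0.08 (adjusted p = 0.0484). NOTCH1 was called in only 7 of the 21 fits that leave out a library.

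Of 20 cell cycle genes, 3 were called higher and the median was 0.27. The count was 2 with both libraries that stood apart left out, 2 among libraries with little Y-linked signal, and 1 without replicate 5 or 7 of the T10 libraries. UHRF1, which brings the maintenance DNA methyltransferase to newly copied DNA, had 4.27, 6.87 and 12.6 CPM in the T10 libraries and 1.68, 3.10 and 5.93 CPM in the T09 libraries. Its difference of 1.34 ± 0.22 (adjusted p = 0.00329) was called with each library left out. BUB1, a mitotic checkpoint kinase, differed by 0.88 ± 0.22 (adjusted p = 0.0251). The replicative helicase subunit MCM7 differed by 0.32 ± 0.09 (adjusted p = 0.0495) and was called in 7 of the 21 fits. MKI67 and TOP2A, which mark dividing cells, did not pass: MKI67 was at 0.76 ± 0.29 (adjusted p = 0.119) and TOP2A at 0.30 ± 0.21 (adjusted p = 0.448).

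Among 22 axon guidance genes, 3 were called higher and none lower, with a median of 0.25. The count was 6 with both libraries that stood apart left out, 4 among libraries with little Y-linked signal, 6 without replicate 1 of the T09 libraries and 0 without replicate 6 or 7 of the T10 libraries. DRAXIN, a secreted chemorepellent, had 2.18, 3.14 and 8.37 CPM against 0.665, 2.03 and 3.76 CPM, a difference of 1.33 ± 0.30 (adjusted p = 0.0136). Its adjusted p was 0.0521 without replicate 6, 0.0565 without replicate 7 and 0.0713 among libraries with little Y-linked signal. The other 2, the secreted cues SEMA3A and NTN1, lost their calls without replicate 2 of the T10 libraries, at adjusted p of 0.288 and 0.127. SLIT, ROBO, UNC5 and ephrin family members of the list did not pass.

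In the oligodendrocyte lineage, calls among precursor and newly formed cell genes were higher and calls among mature cell genes were lower, and no test compared the stages. All 10 oligodendrocyte precursor genes had a positive difference, 4 were called higher and the median was 0.35. With both libraries that stood apart left out 7 were called, and 9 among libraries with little Y-linked signal. Without replicate 6 or 7 of the T10 libraries 2 were called. C1QL1, a secreted C1q-like protein of precursors, had 12.8, 16.4 and 18.1 CPM in the T10 libraries and 7.56, 10.5 and 13.2 CPM in the T09 libraries. The difference was 0.61 ± 0.10 (adjusted p = 0.00341), and 6 of 7 T10 libraries were above all T09 libraries. LHFPL3 differed by 0.56 ± 0.12 (adjusted p = 0.00978) and the neurexin ligand NXPH1 by 0.32 ± 0.08 (adjusted p = 0.0213). The growth factor receptor PDGFRA, the defining precursor gene, was at 0.44 ± 0.12 (adjusted p = 0.0409) and was called in only 6 of the 21 fits. Precursor transcription factors did not pass, among them OLIG2 at 0.38 ± 0.13 (adjusted p = 0.0792).

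Of 9 genes of newly formed oligodendrocytes, 2 were called higher and the median was 0.38. The count was 3 with both libraries that stood apart left out and 4 among libraries with little Y-linked signal, where the median was 0.62. ENPP6, a choline phosphodiesterase of cells that have just left the precursor stage, had 14.9, 20.6 and 27.9 CPM in the T10 libraries and 8.14, 10.9 and 27 CPM in the T09 libraries. The groups overlapped through 2 T09 libraries, replicate 12 at 27 CPM and replicate 8 at 16.4 CPM, while the other 12 had at most 12.3 CPM. The difference was 0.80 ± 0.18 (adjusted p = 0.0143). GPR17, a receptor of the same stage, differed by 0.66 ± 0.16 (adjusted p = 0.0170), and its call was lost without replicate 7 of the T10 libraries (adjusted p = 0.0535).

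Of 20 genes of mature, myelinating oligodendrocytes, 15 had a negative difference and 5 a positive one of up to 0.25. Of the list 7 were called lower in the T10 libraries and none higher, and the median was −0.48. The count was 6 with both libraries that stood apart left out and 3 among libraries with little Y-linked signal, and it ran from 3, without replicate 1, 6 or 7 of the T10 libraries, to 11, without replicate 3. The median was −0.16 among libraries with little Y-linked signal, and from −0.75 to −0.34 with single libraries left out. The summed level of the list ranged from 2279 to 9447 CPM in the T10 libraries and from 4377 to 10074 in the T09 libraries and overlapped widely. The sheath gene MBP (myelin basic protein) was at −0.41 ± 0.26 (adjusted p = 0.372) and the myelin enzyme CNP at 0.03 ± 0.18 (adjusted p = 0.945), and neither was called.

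CNDP1, the secreted dipeptidase that cleaves carnosine and a gene of late oligodendrocytes in primate brain, had the largest decrease of any named gene called. It was at 0.444, 0.833 and 7.54 CPM in the T10 libraries and at 1.5, 26.9 and 37.7 CPM in the T09 libraries. The difference was −3.43 ± 0.55 (adjusted p = 0.00329), or 10.8-fold. Overlap came from replicates 8 and 12 of the T09 libraries, at 1.5 and 5.83 CPM, while the other 12 had at least 18.4 CPM. In the T10 libraries replicates 3 and 4 were highest, at 7.54 and 4.78 CPM.

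HAPLN2, a link protein of the matrix at nodes of Ranvier, had 6.02, 14.8 and 25.9 CPM against 15.3, 35.9 and 56.1 CPM, a difference of −1.38 ± 0.26 (adjusted p = 0.00578). Again replicates 8 and 12 were the lowest of the T09 libraries and replicate 3 was the highest of the T10 libraries. Replicate 1 of T09, whose VMT number is also among the 3 lowest of its group, did not share this. It had 56.1 CPM of HAPLN2, the highest T09 level, and 30.2 CPM of CNDP1. TMEM235, a small membrane protein, differed by −1.61 ± 0.34 (adjusted p = 0.0100) and ANLN, which helps septins assemble in the myelin sheath, by −1.28 ± 0.34 (adjusted p = 0.0312). The lipid receptor S1PR5 was at −1.10 ± 0.30 (adjusted p = 0.0370). Calls of the protease KLK6 (−0.99, adjusted p = 0.0482) and of ASPA (−0.77, adjusted p = 0.0427), which degrades N-acetylaspartate, held in only 4 and 8 of the 21 fits.

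Several of the other genes with the largest decreases showed the same order of libraries, with replicate 8 lowest among the T09 libraries and replicate 3 highest among the T10 libraries. One was SLCO1A2, an organic anion transporter, with 10.4, 17.7 and 34.1 CPM in the T10 libraries and 20.2, 43.3 and 68.1 CPM in the T09 libraries. Its difference was −1.15 ± 0.20 (adjusted p = 0.00465). The others were the borate and proton transporter SLC4A11 (−1.55), the inositol cotransporter SLC5A11 (−1.27), the guanine nucleotide exchange factor DOCK5 (−1.24) and CLCA2 (−1.77, adjusted p = 0.0146). The interferon-induced membrane protein BST2 (−1.31, adjusted p = 0.0123) was also among the 15 largest decreases. Its lowest T09 library was replicate 12, at 0.662 CPM, with replicate 8 at 0.722 CPM. None of 12 interferon response genes was called and their median was −0.15. With both libraries that stood apart left out 1 was called lower, and 1 in each direction among libraries with little Y-linked signal. GPNMB, a glycoprotein of phagocytes and other cells, was at −1.28 ± 0.35 (adjusted p = 0.0336), and none of 11 microglia genes was called in either direction. LRRC53 (−1.69), the melanosome transport protein MLPH (−1.66), HTATIP2 (−1.34) and the fucosyltransferase FUT2 (−1.21) completed the 15 largest decreases.

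The matrix that surrounds neurons changes as circuits mature. Of 8 perineuronal matrix genes, 4 were called higher, none lower, and the median was 0.43, with 5 called when both libraries that stood apart were left out and 5 among libraries with little Y-linked signal. Without replicate 1, 6 or 7 of the T10 libraries 3 were called. NCAN (neurocan), a juvenile chondroitin sulfate proteoglycan, had 325, 368 and 574 CPM in the T10 libraries and 199, 243 and 354 CPM in the T09 libraries. It differed by 0.62 ± 0.11 (adjusted p = 0.00566), with 5 of 7 T10 libraries above all T09 libraries. BCAN (brevican) differed by 0.49 ± 0.09 (adjusted p = 0.00578) and HAPLN1, which links such proteoglycans to hyaluronan, by 0.79 ± 0.14 (adjusted p = 0.00520). ACAN (aggrecan), the proteoglycan that defines perineuronal nets, was at 0.70 ± 0.19 (adjusted p = 0.0351) and held in 14 of the 21 fits. HAPLN4, a link protein of mature nets, was at −0.50 with an adjusted p of 0.470.

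Among genes of the vessel wall, 3 of 8 mural cell genes were called higher with a list median of 0.24. Among libraries with little Y-linked signal 1 was also called lower, and 2 were called higher without replicate 1, 6 or 7 of the T10 libraries. The potassium channel subunit ABCC9 of pericytes had 26.2, 33.2 and 46.3 CPM against 13.1, 20.7 and 30 CPM, a difference of 0.69 ± 0.13 (adjusted p = 0.00676). PDGFRB, the pericyte growth factor receptor, differed by 0.40 ± 0.09 (adjusted p = 0.0154) and NOTCH3 by 0.41 ± 0.11 (adjusted p = 0.0285). Contractile genes of the same list did not pass, including ACTA2 at 0.23 and MYH11 at −0.09. Of 11 endothelial genes, the glucose transporter SLC2A1 alone was called, lower by −0.28 ± 0.08 (adjusted p = 0.0468), in 7 of the 21 fits. No endothelial gene was called lower and 3 were called higher with both libraries that stood apart left out, and among libraries with little Y-linked signal 1 was called in each direction.

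Of 10 fibroblast and collagen genes, only fibronectin, FN1, was called (0.50 ± 0.13, adjusted p = 0.0279), although the list median was 0.48. The count was 5 without replicate 8 of the T09 libraries and 0 without replicate 1, 5 or 6 of the T10 libraries. Collagen levels were set apart by single libraries: COL1A1 reached 76.4 CPM in replicate 8 of the T09 libraries against a group median of 3.67, and its difference of 0.46 ± 0.62 did not pass. The summed level of the list ran from 296 to 535 CPM in the T10 libraries and from 195 to 787 in the T09 libraries. Among libraries with little Y-linked signal the list median was −0.01, and without replicate 8 of T09 it was 0.80. The part of these genes in other results was not tested.

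Growth factor and hormone genes included some of the larger differences. Of 10 genes of the insulin-like growth factor system, 4 were called higher, with a median of 0.38: IGF1, a growth factor of neurons and glia, and the binding proteins IGFBP2, IGFBP5 and IGFBP7. IGF1 had 29.2, 44.1 and 61.6 CPM against 24.3, 29.7 and 40 CPM, a difference of 0.55 ± 0.12 (adjusted p = 0.00978). IGFBP5 had 95.5, 156 and 223 CPM against 78.2, 110 and 131 CPM, and differed by 0.54 ± 0.11 (adjusted p = 0.00890). IGF2 and both receptors did not pass. The count was 5 with both libraries that stood apart left out. Among libraries with little Y-linked signal 2 were called higher and 1 lower, and 2 were called higher without replicate 1, 5, 6 or 7 of the T10 libraries or replicate 2 or 4 of the T09 libraries.

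DIO3, the deiodinase that inactivates thyroid hormone, had 0.666, 2.14 and 5.14 CPM in the T10 libraries and 0.197, 0.683 and 1.44 CPM in the T09 libraries. It differed by 1.68 ± 0.33 (adjusted p = 0.00712) and was the only call among 8 thyroid hormone genes, of which 3 were called with both libraries that stood apart left out. The lowest T09 values lie near the level of 3 counts, which was 0.152 to 0.321 CPM in those libraries.

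SULT1E1, which sulfates and so inactivates estrogens, had the largest increase of any named gene called. It ranged from 1.43 to 19.4 CPM around a median of 5.25 in the T10 libraries and from 0.170 to 3.97 CPM around 0.694 in the T09 libraries, a difference of 2.45 ± 0.50 (adjusted p = 0.00898), or 5.48-fold. Its adjusted p was at most 0.0422 with any library left out, and 5 of 7 T10 libraries exceeded all T09 libraries. CRISPLD1, a secreted cysteine-rich protein, differed by 1.27 ± 0.16 (adjusted p = 0.000596) with 9.85 to 22.7 CPM in the T10 libraries and 3.96 to 9.74 CPM in the T09 libraries, which did not overlap. THBS1, a thrombospondin that promotes synapse formation, had 25.7, 35.2 and 85.9 CPM against 9.01, 19.5 and 50.1 CPM (1.28 ± 0.27, adjusted p = 0.00992). Further increases among the 15 largest were those of the potassium channel subunit KCNE1L (1.31), PLEKHG7 (1.28) and the prokineticin receptor PROKR2 (1.28). CHODL (1.75, adjusted p = 0.0232) was at 10 and 12.9 CPM in replicates 1 and 2 of the T10 libraries and at 0.7 to 3.68 CPM in the other 5, within the T09 range. Its difference was 1.43 (adjusted p = 0.0867) without replicate 1 and 1.28 (adjusted p = 0.0815) without replicate 2. No gene among 9 of the glucocorticoid response was called, and their median was −0.04.

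Levels of 9 genes were higher in all 7 T10 libraries than in any T09 library (0.0405% of the genes tested), and 9 were lower in all of them (0.0405%). These genes were chosen after their values were seen, and all 18 were also called. Apart from CRISPLD1, the higher genes were the dopamine receptor DRD2, the de novo DNA methyltransferase DNMT3A, the kinesin KIF21B, the ubiquitin ligase MARCH4, the mitochondrial GTPase MTG2, the actin-binding protein MTSS1, the synaptic adhesion protein NRXN2 and the Slit-Robo GTPase activator SRGAP1. The lower genes included 2 of autophagy, the protease ATG4C (−0.34) and the receptor CALCOCO2 (−0.21), and the carbonyl reductase CBR1 (−0.35). The others were FAM188A, LOC103237777, MPZL2, SEC23IP, TBC1D31 and TUFT1. DNMT3A had 170, 203 and 231 CPM against 132, 149 and 169 CPM, a difference of 0.41 ± 0.07 (adjusted p = 0.00439). NRXN2 had 371 to 490 CPM against 299 to 371 CPM, and its highest T09 and lowest T10 values were almost the same.

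Among neuronal genes, the lists of mature channels and of neuron classes gave few calls. SNAP25, a membrane protein of the synaptic vesicle fusion machinery, had 739, 816 and 1104 CPM in the T10 libraries and 909, 1349 and 1612 CPM in the T09 libraries, a difference of −0.57 ± 0.11 (adjusted p = 0.00578). Of the 7 T10 libraries, 4 were below all T09 libraries. NSF, the ATPase that takes the fused complex apart, was at −0.51 ± 0.15 (adjusted p = 0.0459) and held in only 3 of the 21 fits. Of the 10 called genes with the largest mean CPM, all were lower. Among the others were CLU, MAP1A, CHN1, ALDOA, ALDOC, EFR3A and RAPGEF4. CLU (clusterin), an extracellular chaperone made by astrocytes, had 1021, 1090 and 1410 CPM against 1304, 1513 and 2025 CPM, with 6 of 7 T10 libraries below all T09 libraries (−0.43 ± 0.09, adjusted p = 0.00964).

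All 14 late synaptic and channel genes had a negative difference, with a median of −0.24, but none was called. Closest was the fast potassium channel KCNC1 at −0.41 ± 0.12 (adjusted p = 0.0541). With both libraries that stood apart left out 2 were called lower, and 1 among libraries with little Y-linked signal. Among 7 early synaptic and channel genes 2 were called higher: the juvenile NMDA receptor subunit GRIN3A (0.53 ± 0.14, adjusted p = 0.0264) and the early sodium channel SCN3A (0.33 ± 0.10, adjusted p = 0.0474). The call of SCN3A was lost without replicate 2 of the T10 libraries (adjusted p = 0.119), and neither gene was called without replicate 6, 7 or 1. Of the list 1 was called with both libraries that stood apart left out, and 1 among libraries with little Y-linked signal.

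None of 8 excitatory neuron genes, 5 dentate granule cell genes or 9 CA pyramidal neuron genes was called, although among libraries with little Y-linked signal 1 dentate granule cell gene was called higher and 2 lower. The dentate granule cell transcription factor PROX1 had medians of 139 and 143 CPM in the T10 and T09 libraries. Of 11 inhibitory neuron genes, all had a positive difference and only CALB2 (calretinin) was called (0.83 ± 0.23, adjusted p = 0.0403), a call lost without replicate 2 of the T10 libraries (adjusted p = 0.146). Of the list 3 were called higher with both libraries that stood apart left out, and none among libraries with little Y-linked signal. GAD1, which makes GABA, was at 0.17 ± 0.08 (adjusted p = 0.234). Among 10 astrocyte genes only ALDOC was called (−0.29 ± 0.07, adjusted p = 0.0228), and GFAP was at −0.09 ± 0.15 (adjusted p = 0.796).

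Heat shock genes encode chaperones that refold damaged proteins. All 10 tested had a negative difference, 4 were called lower and the median was −0.31. With both libraries that stood apart left out 7 were called, 8 among libraries with little Y-linked signal and 9 without replicate 1 of the T09 libraries. Without replicate 1, 6 or 7 of the T10 libraries 3 were called. HSPA1A, a stress-inducible HSP70 chaperone, had 5.63, 10.6 and 12.5 CPM in the T10 libraries and 11.9, 16.7 and 24.7 CPM in the T09 libraries (−0.76 ± 0.14, adjusted p = 0.00597). HSPA1B, its near-identical copy, differed by −0.86 ± 0.18 (adjusted p = 0.0107), and how reads were divided between the copies is uncertain. The co-chaperone DNAJB1 was at −0.35 ± 0.08 (adjusted p = 0.0113) and the small heat shock protein HSPB1 at −0.52 ± 0.15 (adjusted p = 0.0411). The constitutive chaperone HSPA8, at far higher CPM, was at −0.20 ± 0.13 and did not pass. Of 14 immediate early genes, JUN (−0.52 ± 0.14, adjusted p = 0.0314) and the phosphatase DUSP1 (−0.61 ± 0.17, adjusted p = 0.0386) were called lower, and 4 were with both libraries that stood apart left out. Without replicate 6 or 7 of the T10 libraries none was called, and 1 was without replicate 1 of T10.

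Of 22 oxidative phosphorylation genes, 20 had a negative difference and 2 were called lower, with a median of −0.14. NDUFB8, a subunit of complex I, was at −0.41 ± 0.08 (adjusted p = 0.00731) and COX4I1, of complex IV, at −0.25 ± 0.06 (adjusted p = 0.0155). The count was 4 with both libraries that stood apart left out, and 1 without replicate 6 of the T10 libraries. Among the 6 and 8 libraries with little Y-linked signal 16 of the 22 were called lower and the median was −0.26. Cytosolic ribosome genes centred on −0.02, with RPLP0 the only call of 22 (0.31 ± 0.08, adjusted p = 0.0312). None of 20 cholesterol synthesis genes was called, at a median of 0.03, and of 15 circadian clock genes only TEF was, at −0.39 ± 0.08 (adjusted p = 0.0113), with 2 called lower when both libraries that stood apart were left out.

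**Figure D4:**
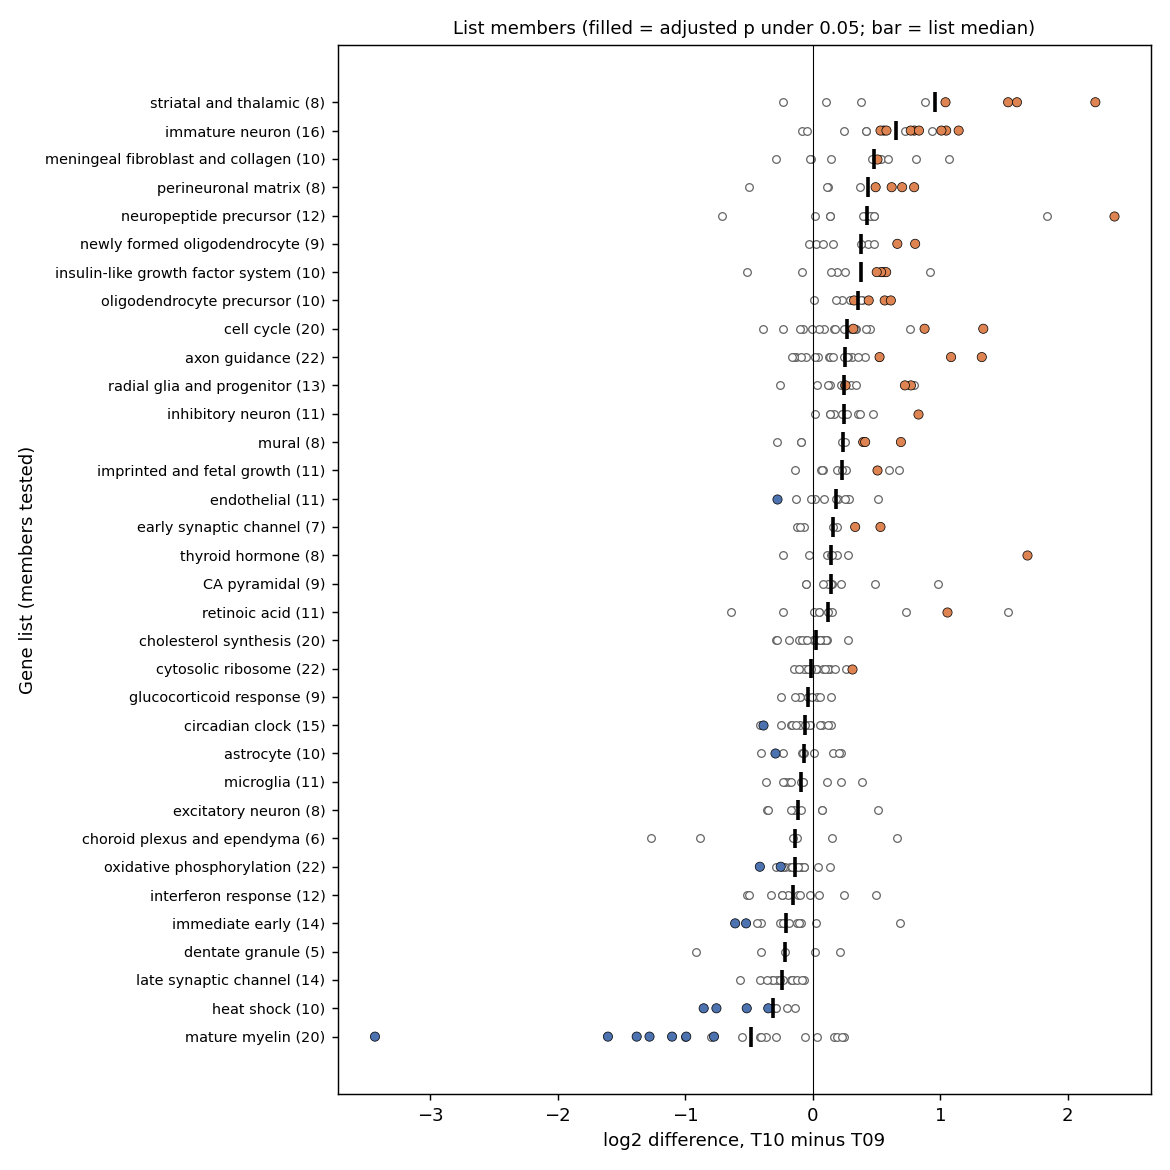
Log2 difference between the T10 and T09 libraries (x axis) of each tested member of 34 gene lists (y axis, members tested in brackets), filled where the adjusted p was below 0.05, with a bar at each list median. Immature neuron genes have a median of 0.65 and mature myelin genes of −0.48, while ribosome and cholesterol synthesis genes lie near 0.

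A set of striatal genes was called through 1 library. The list of striatal and thalamic genes had 8 members tested, 4 called higher and a median of 0.96. Without both libraries that stood apart 1 was called and the median was 0.13. Among libraries with little Y-linked signal, which include replicate 2 of the T10 libraries, 2 were called and the median was 0.93. In replicate 2 of the T10 libraries the list summed to 607 CPM, against 85.8 to 113 in the other 6 and 73.9 to 139 in the T09 libraries. PENK, the enkephalin precursor abundant in striatal neurons, was at 454 CPM in that library and at 9.09 to 25.9 CPM in the other T10 libraries, within the T09 range of 2.76 to 26.5. Its difference went from 2.36 ± 0.57 (adjusted p = 0.0195) to 0.14 (adjusted p = 0.803) without that library.

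The G protein regulator RGS9 went from 1.53 to 0.02 (adjusted p = 0.959 without the library) and TPBG, which was among the 15 largest increases, from 1.64 to 0.45 (adjusted p = 0.416). The adenosine receptor ADORA2A went from 1.60 to 0.52 (adjusted p = 0.0838). DRD2, the receptor of indirect pathway striatal neurons, behaved otherwise: it was at 16.1 CPM in replicate 2 and at 4.88 to 7.87 CPM in the other 6, all above the T09 range of 0.987 to 4.77 CPM. Without replicate 2 its difference was 0.76 (adjusted p = 0.0192). The same library had 252 CPM of PPP1R1B (DARPP-32) and 115 CPM of the dopamine receptor DRD1, and only 20.1 CPM of PROX1.

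**Figure D5:**
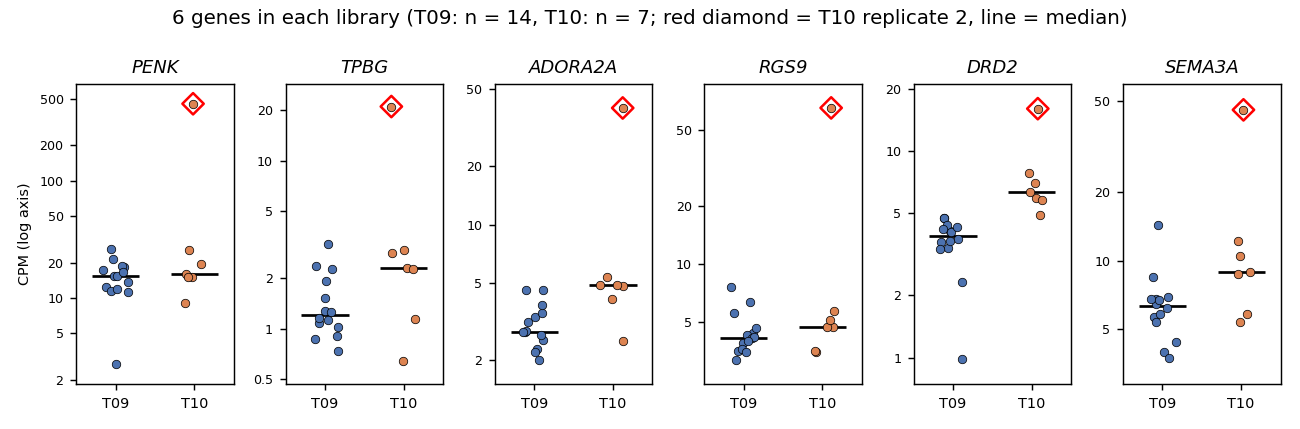
Level of 6 genes (CPM, log axes) in each T09 library (blue, n = 14) and T10 (orange, n = 7), with the group median as a line and replicate 2 of the T10 libraries ringed by a red diamond. For PENK and RGS9 the other 6 T10 libraries lie within or near the T09 range, while for DRD2 all 7 lie above it.

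The 9 libraries that open with '2010' and carry higher VMT numbers were not part of the comparison, and their levels are given here without a test. After scaling all 32 libraries together their median was 63.9 CPM for SOX11, between 79.3 in T10 and 32.4 in T09. For CNDP1 it was 2.88 CPM, between 0.820 and 27, with a range from 0.383 to 32.4 that spans both groups. HAPLN2 had a median of 17 CPM there, TNC 358 CPM and SULT1E1 3.17 CPM, each also between the medians of T10 and T09.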

How the data were processed

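The authors deposited 1 table of raw counts of reads per gene for 32 libraries. STAR and HTSeq made it, per the submitters' processing notes. Their versions, the genome build, annotation and strand setting: not given in the sources used here. Overlapping genes and near-identical copies are therefore uncertain. Of 33999 rows, 5 count reads that were not assigned to a gene, such as those with several alignments, and were dropped. Symbols are those of the table, and 825 of 17250 rows named only by gene number were given the symbol of the reference gene table. No pair among the 21 libraries were alike within counting noise (chi-square per degree of freedom at least 4.30).

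The counts were fitted in edgeR 4.0.16 (R 4.3.3) with TMM scaling and filterByExpr by group (minimum count 10, total 15, proportion 0.7), with the quasi-likelihood test, two-sided, Benjamini-Hochberg adjustment and a threshold of 0.05. A standard error is the difference over the square root of the F statistic. The fit was tested on simulated data. CPM use TMM library sizes.

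Named genes were the 15 largest differences each way among called genes with a symbol and a mean of at least 1 CPM. To these were added up to 4 tested members of smallest p per list, called or not, and the 10 called genes of largest mean CPM. Members needed to account for a list were also named. Members and lists were chosen with earlier results of these data known. Alternatives were other scalings and filters, covariates, all 32 libraries, DESeq2 1.42.0, limma-trend 3.58.1 and leaving out each library. Leaving out both libraries that stood apart, and those with Y-linked counts of 10 CPM or more, was added after the data were seen, as were 4 gene lists. A few named genes and list members are not reported here, although the counts include them except where outlying libraries were counted.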

Additional observations from a re-analysis of the deposited data

Results flagged for a closer look

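Among the 7 T10 libraries, 10 of 83 named genes that were called had 1 library far from the rest by Dixon's test at its 95% critical value of 0.568 for 7 values, a test that chance alone passes in about 1 in 20 groups. In 8 of the 10 the library was replicate 2. It was high for PENK (454 CPM, others 9.09 to 25.9), RGS9 (65.1, others 3.52 to 5.71), SEMA3A (45.9, others 5.36 to 12.2), ADORA2A (40, others 2.51 to 5.37), TPBG (21.1, others 0.642 to 2.95), DRD2 (16.1, others 4.88 to 7.87) and LRRC53 (3.42, others 0.571 to 1.24). It was low for the prokineticin receptor PROKR2, at 1.00 CPM against 4.90 to 14.5 CPM in the others.

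The melanosome transport protein MLPH stood out in replicate 1, at 1.71 CPM against 0.0833 to 0.407 CPM, the lowest of which is under the level of 3 counts. NCAN was highest in replicate 6, at 574 CPM against 325 to 414 CPM. The share of counts in the top 10 genes was 3.20% in replicate 3 and 2.49% to 2.78% in the other 6.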

How the results depend on the processing

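Of 86 named genes called, none changed direction in 36 alternatives, and 30 were called in all of them. The genes were chosen from calls in the same libraries, so a kept direction was close to fixed in advance. Of 3096 gene fits 452 missed the threshold. Calls higher and lower numbered 1060 and 800 with the share of reads in no feature as a covariate, 1150 and 912 with the library total, 1213 and 973 with the VMT number, 1209 and 1073 without both libraries that stood apart, and 1346 and 1325 with little Y-linked signal. DESeq2 called 1028 and 787, and limma-trend 619 and 499. With single libraries left out the counts ran from 275 to 1434 higher and from 155 to 1202 lower. With the title's serial number as a covariate 504 of the 1162 calls (43.4%) were kept, and 928 genes were called. The cause was not tested. Of 1295 list medians 1281 moved by less than the spread between T10 libraries and 14 by more, among them retinoic acid genes, whose median went from 0.12 to −0.12 without replicate 2 of T10. That spread is a wide measure, and 21 of the 36 alternatives left out only 1 library, so few medians could pass it. Among libraries with little Y-linked signal the mature myelin median went from −0.48 to −0.16. The fibroblast and collagen median went from 0.48 to −0.01 there. The Y-linked list has no value among libraries with little Y-linked signal. No paired analysis was possible because the labels give no pairing between libraries. Between 9347635 and 19673621 counts per library, 3 counts are 0.152 to 0.321 CPM, so genes of a few CPM such as DIO3, MLPH and FUT2 rest on few reads, and that floor covers counting error only.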

Other observations

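Genes that write and remove DNA methylation were compared in a list chosen after values had been seen. Of 16 genes, 4 were called higher in the T10 libraries, none lower, and the median was 0.13 on the log2 scale, against 5.23% of all genes tested called in either direction. Without replicate 1 of the T09 libraries 8 were called higher and 2 lower, and 7 and 1 both with the 2 libraries that stood apart left out and among libraries with little Y-linked signal. Calls over all genes also rose in those fits, to 2636 of 22075, 2282 of 22235 and 2671 of 21830 in that order. Besides UHRF1 and DNMT3A, the 4 called higher with all 21 libraries were TET3, which oxidises methylated cytosine, and TDG, the glycosylase that removes the oxidised base. TET3 had 91.7, 101 and 159 CPM as lowest, median and highest level in the T10 libraries and 61.9, 74.4 and 92.7 CPM in the T09 libraries, with 6 of 7 T10 libraries above all T09 libraries (0.53 ± 0.10, adjusted p = 0.00549). TDG differed by 0.50 ± 0.11 (adjusted p = 0.00994). The maintenance methyltransferase DNMT1 was at 0.15 (adjusted p = 0.0717). Among 22 Polycomb genes, the alternative catalytic subunits of the repressive complex differed in opposite directions. EZH2, the subunit of dividing cells, had 7.33, 8.86 and 9.45 CPM against 4.41, 6.41 and 8.61 CPM (0.43 ± 0.10, adjusted p = 0.0167). EZH1, the subunit of cells that no longer divide, had 52.9, 61.1 and 66.5 CPM against 64.4, 83.0 and 90.2 CPM (−0.44 ± 0.07, adjusted p = 0.00302), and 6 of 7 T10 libraries were below all T09 libraries. CBX7 was also lower (−0.63 ± 0.13, adjusted p = 0.00881), as was PHF1 (−0.23), and PHC1 was higher (0.21). Of the Polycomb genes 3 were called higher and 3 lower with both libraries that stood apart left out, and 4 and 3 among libraries with little Y-linked signal. All adjusted p are from edgeR's quasi-likelihood test.

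A list of synaptic vesicle fusion genes and one of glycolysis, also chosen after values had been seen, leaned lower. Of 17 vesicle fusion genes 15 had a negative difference, SNAP25, NSF and RIMS1 were called lower, and the median was −0.18. The count was 6 with both libraries that stood apart left out, 6 among libraries with little Y-linked signal, and from 1 to 7 with single libraries left out, with 7 without replicate 1 of the T09 libraries. The syntaxin STX1A was at −0.34 (adjusted p = 0.0574), while VAMP2, the vesicle partner of SNAP25, was at 0.02 (adjusted p = 0.957). Of 16 glycolysis genes 14 had a negative difference and the aldolases ALDOA (−0.45 ± 0.10, adjusted p = 0.0149) and ALDOC and the phosphofructokinase PFKP (−0.38 ± 0.10, adjusted p = 0.0244) were called lower, with a median of −0.22. Without both libraries that stood apart 8 of the 16 were called lower, 9 without replicate 1 of the T09 libraries alone, and 11 among libraries with little Y-linked signal. Without replicate 6 of the T10 libraries 1 was called lower, and 2 were without replicate 1 or 7. The lowest summed level of either list among the T09 libraries was that of replicate 1.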
